A study of Ovis aries with 12 samples.

Results

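Cells move lactate, pyruvate, ketone bodies and succinate across their membranes by a small set of carriers, and these data give the RNA levels of 8 genes for such carriers and for the acid exchangers that work beside them. The 8 genes were picked by name from the 21257 genes of the deposited table: SLC16A1 (LOC443456 in the table, described there as monocarboxylate transporter 1), SLC16A3, SLC16A7, BSG, SLC9A3, SLC4A2, SLC13A3 and SLC25A10. All 8 were found, each in a single entry. RNA was sequenced from 12 libraries of Tan sheep aged 5 months, 3 libraries per diet: a basal diet, called the control, and that diet plus 0.5%, 1% or 2% succinate. All sheep thus ate the same basal ration, and no genotype, sex or other agent was stated. The trial held 36 sheep, 9 on each diet. Whether each library came from its own sheep was not stated. The p-values therefore speak only to how far these libraries differ among themselves, which may in part be technical.

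The carriers of the SLC16 family move a monocarboxylate (lactate, pyruvate, a ketone body or a short-chain fatty acid) together with a proton. Some of them reach the cell surface only when bound to a small membrane glycoprotein, which for SLC16A1 and SLC16A3 is basigin, the product of BSG. Acid that enters this way is removed by sodium-proton exchangers of the SLC9 family, while SLC4 proteins exchange chloride for bicarbonate. Succinate itself carries a pair of negative charges and is taken up across the plasma membrane by sodium-coupled SLC13 carriers, and SLC25A10 moves it, with malate and phosphate, across the inner mitochondrial membrane. In ruminants this machinery is best known from the lining of the rumen, where it handles the acids of fermentation.

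The sample labels name no tissue, and the title of the series speaks of the rumen epithelium. The libraries went against that title. Smooth muscle genes dominated the libraries (DES averaged 9930 ± 2685 FPKM, SD, n = 12), and of 14 markers of stratified epithelium 0 were abundant enough to be tested, 7 had 0 reads in all 12 libraries and KRT10 had the highest mean, at 0.499 FPKM. FPKM, the authors' unit, scales fragments to the length of the gene and to the total of the library, so that levels can be compared between genes. Each library held 15489883 to 18717309 reads assigned to genes. Replicates 2 and 3 of the 1% diet stood apart from the rest in that long genes were high relative to short ones: the Spearman correlation, across genes, between a gene's deviation from its mean and its length was 0.58 and 0.43 there, against -0.63 in replicate 2 of the 0.5% diet, -0.37 and -0.31 in control replicates 2 and 1, and -0.16 to 0.28 in the others. The difference of each tested carrier gene at 1% succinate is given with and without both libraries. In bulk RNA of this kind, fewer cells of a type and less RNA per cell cannot be told apart.

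By level the 8 genes spanned BSG, at 135 ± 20.8 FPKM, SLC16A1, at 38.0 ± 10.8, SLC16A7, at 9.20 ± 1.88, SLC4A2, at 8.40 ± 2.29, SLC25A10, at 2.73 ± 0.823, SLC16A3, at 0.183 ± 0.0699, SLC9A3, at 0.0380 ± 0.0520, and SLC13A3, at 0.0298 ± 0.0357 (mean ± SD, n = 12 each). BSG was among the top 1.79% of all genes in the table and SLC16A1 among the top 7.61%. The ranges of neighbours in this order did not overlap from BSG down to SLC16A7 and from SLC4A2 down to SLC16A3. Those of SLC16A7 and SLC4A2 did, with SLC16A7 the higher in 9 of 12 libraries. So did those of SLC16A3 and SLC9A3, with SLC16A3 the higher in 12 of 12, and those of SLC9A3 and SLC13A3, with SLC9A3 the higher in 4 of 12. Genes were tested when at least 3 libraries had at least 1 FPKM. This held for 12095 genes, among them 5 of the 8: BSG, SLC16A1, SLC16A7, SLC4A2 and SLC25A10.

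Whether added succinate went with another level of these genes was examined dose by dose. By limma on log2(FPKM + 1), with Benjamini-Hochberg adjustment over all 12095 genes and a threshold of 0.05, 0 of the 5 tested carrier genes passed at any dose, beside 0% of all genes at each dose. At an unadjusted p under 0.05 stood 1 of 5 at 0.5% succinate (SLC16A7), where 4.65% of all genes did, 1 of 5 at 1% (again SLC16A7), where 19.4% did, and 0 of 5 at 2%, where 3.17% did. With limma-voom on reads recovered from the FPKM values, 0 of 12095 genes passed, 576, 2258 and 357 genes had an unadjusted p under 0.05 at 0.5%, 1% and 2%, and 1, 1 and 0 of these were carrier genes. Differences are on the log2(FPKM + 1) scale, which understates those of scarce genes. The median difference of all genes was -0.11 at 0.5%, -0.04 at 1% and -0.004 at 2% succinate, and that of the 5 genes was -0.17, -0.08 and -0.09 in the same order.

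**Figure D1:**
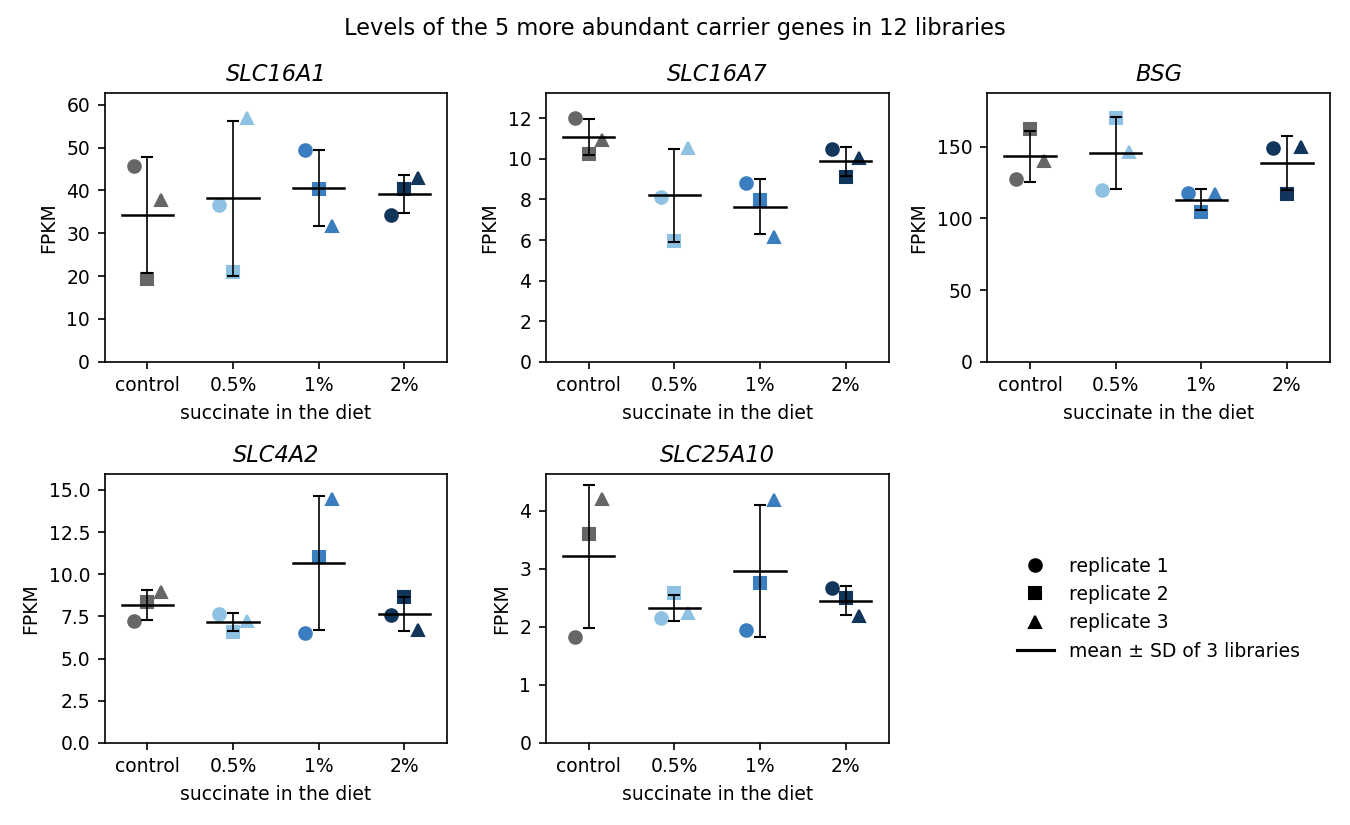
Level of BSG, SLC16A1, SLC16A7, SLC4A2 and SLC25A10 in FPKM (vertical axes, from 0) in the 12 libraries by diet (horizontal axes); points are libraries, with a symbol for each replicate number, and bars are the mean ± SD of 3. SLC16A7 at 1% succinate lies at 6.16 to 8.79 FPKM, below the control libraries at 10.2 to 12.02, and SLC4A2 is highest in replicates 3 and 2 of the 1% diet, at 14.5 and 11.02.

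Among the monocarboxylate carriers, SLC16A1, a carrier of lactate, ketone bodies and short-chain fatty acids found in most tissues, was the most abundant. In the positions of the deposited table, whose genome build is not given in the sources used here, it lies on chromosome 1 from 90319385 to 90353156, on the minus strand. It stood at 45.7, 19.4 and 37.7 FPKM in the control libraries, at 36.6, 20.9 and 56.9 at 0.5% succinate, at 49.5, 40.4 and 31.7 at 1%, and at 34.3, 40.4 and 42.8 at 2%, each in the order of replicates 1 to 3. The diets overlapped throughout, and the span from the lowest to the highest library was 2.93-fold. The lowest values were those of replicate 2 of the 0.5% diet and replicate 2 of the control, the 2 libraries with the strongest trend against long genes, and SLC16A1, with 6424 bases, is longer than the median tested gene, at 3135. With the length trend removed SLC16A1 stood at 27.3 FPKM in replicate 2 of the 0.5% diet, against 19.7 in control replicate 2.

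The difference of SLC16A1 to the control was 0.13 (SE 0.35) at 0.5% succinate, 0.30 (SE 0.35) at 1% and 0.27 (SE 0.35) at 2%, with limma's adjusted p at 0.955, 0.641 and 0.999. The 95% interval at 2% ran from -0.49 to 1.02. Without control replicate 2 the differences were -0.23, -0.05 and -0.09, so the sign of all 3 rested on that library. Without replicates 2 and 3 of the 1% diet the difference at 1% was 0.60 (SE 0.54). The SD within the diet was 4.41 FPKM at 2% and 18.1 at 0.5% succinate, against 13.5 in the control (n = 3 each). The spread was not compared by a test.

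SLC16A7 encodes monocarboxylate transporter 2, a high-affinity carrier known in human and rodent tissues for taking up pyruvate and lactate. It lies on chromosome 3 from 159826758 to 160022886, on the minus strand. It stood at 12.02, 10.2 and 10.9 FPKM in the control, at 8.11, 5.94 and 10.6 at 0.5% succinate, at 8.79, 7.99 and 6.16 at 1%, and at 10.5, 9.11 and 10.04 at 2%. All 3 libraries of the 1% diet were below all 3 of the control, and the 0.5% and 2% libraries overlapped the control. Of the 9 succinate libraries, 7 were below the lowest control library, 2 at 0.5%, 3 at 1% and 2 at 2%. That count rests on a single control library, at 10.2 FPKM, and its share over all genes was not computed.

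At 1% succinate SLC16A7 averaged 7.65 ± 1.35 FPKM, against 11.1 ± 0.894 in the control (SD, n = 3 each), a fold of 0.691. Its log2 difference was -0.49 (SE 0.19, 95% interval -0.90 to -0.08), with an unadjusted p of 0.0239 and an adjusted p of 0.212 by limma. At 0.5% succinate it averaged 8.20 ± 2.31, against 11.1 ± 0.894 in the control, a difference of -0.42 (SE 0.19), with an unadjusted p of 0.0474 and an adjusted p of 0.883 by limma. That unadjusted p was 0.116 with median centring (difference -0.31), 0.165 with quantile normalization (-0.28), 0.130 with the length trend removed (-0.31) and 0.214 without replicate 2 of the 0.5% diet (-0.23), all by limma. At 2% it averaged 9.87 ± 0.702, against the same control mean, a difference of -0.15 (SE 0.19, 95% interval -0.56 to 0.26), with an adjusted p of 0.999 by limma. SLC16A7 therefore passed the threshold at no dose, and the values did not follow the order of the doses: its slope was -0.03 per percent succinate (SE 0.11).

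SLC16A7 was the only carrier gene whose 3 differences to the control kept a negative sign in each of the 22 alternative settings tried, from -0.60 to -0.23 at 0.5%, from -0.59 to -0.30 at 1% and from -0.20 to -0.09 at 2%. Without replicates 2 and 3 of the 1% diet its difference at 1% was -0.30, from a single library. Its length, at 2740 bases, is near the median tested gene. With the length trend removed the 1% libraries stood at 6.22 to 9.04 FPKM, against 9.45 to 12.5 in the control, and still did not overlap, with an unadjusted p of 0.0506 by limma. Summed macrophage markers (6 of 7 in the table, with MARCO at 0.0340 FPKM on average) were also lower, at 30.0 to 73.4 FPKM at 0.5%, 52.0 to 70.6 at 1% and 55.2 to 60.7 at 2%, against 77.8 to 134 in the control. Summed smooth muscle markers (10 of 10 in the table) were 36269 to 47622 FPKM at 0.5% succinate, 26007 to 37041 at 1% and 25190 to 32077 at 2%, against 26642 to 28988 in the control, so that the 0.5% libraries all lay above it. The part of either marker list in the values of SLC16A7 was not tested.

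**Figure D2:**
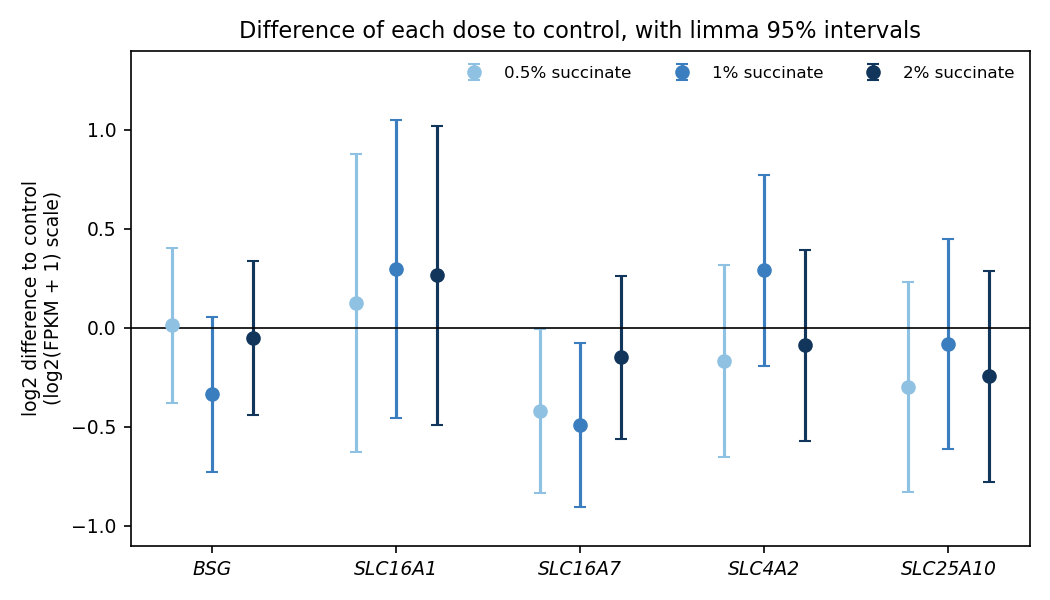
Log2 difference of each dose to the control (vertical axis, log2(FPKM + 1) scale) for the 5 tested carrier genes; points are limma estimates at 0.5%, 1% and 2% succinate from left to right and bars their 95% intervals. All intervals include 0 except those of SLC16A7 at 0.5% and 1%, whose upper ends are -0.01 and -0.08 and whose adjusted p are 0.883 and 0.212.

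Relative to SLC16A1, SLC16A7 was on average also lowest at 1% succinate. The FPKM ratio of SLC16A1 to SLC16A7 within a library was 5.63, 5.06 and 5.15 at 1% succinate, against 3.80, 1.89 and 3.45 in the control, and these did not overlap. It was 3.52 to 5.40 at 0.5% and 3.27 to 4.44 at 2%, overlapping the control. The ratio was chosen after the values were seen and is given without a test or a share over other gene pairs. SLC16A1 has 6424 bases and SLC16A7 2740, and replicates 2 and 3 of the 1% diet favoured long genes. The part of the length trend in this ratio was not tested. Of the summed FPKM of SLC16A1, SLC16A7 and SLC16A3, SLC16A1 made up 65.0% to 84.7% in the 12 libraries and SLC16A3 0.191% to 0.790%.

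SLC16A3, monocarboxylate transporter 4, exports lactate from glycolytic cells and is the form of fast skeletal muscle fibres. It was scarce. It had 12, 21 and 17 reads in the control libraries, 37, 16 and 23 at 0.5% succinate, 13, 18 and 24 at 1%, and 9, 22 and 14 at 2%, and the diets overlapped throughout. The group sums were 76 reads at 0.5% (95% Poisson interval 59.9 to 95.1), 55 at 1% (41.4 to 71.6) and 45 at 2% (32.8 to 60.2), against 50 in the control (37.1 to 65.9), intervals that cover counting error only. In the FPKM fit it was not tested. With limma-voom over the 14381 genes with at least 10 reads in at least 3 libraries, a setting chosen after the data were seen, its log2 difference was 0.45 (SE 0.51) at 0.5%, 0.09 (SE 0.54) at 1% and -0.27 (SE 0.56) at 2%, with adjusted p of 0.907, 0.947 and 1.00. The gene, on chromosome 11 from 50138542 to 50150129 on the minus strand, overlaps CSNK1D on the other strand in the table's positions. The strand setting of the counting was not given in the sources used here, so reads of these 2 genes cannot be told apart where they overlap.

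BSG encodes basigin, the partner that brings SLC16A1 and SLC16A3 to the cell surface, and lies on chromosome 5 from 40882060 to 40888873, on the plus strand. It stood at 127, 163 and 140.2 FPKM in the control, at 119.6, 170.02 and 146 at 0.5% succinate, at 118, 104 and 117 at 1%, and at 149, 117 and 149.6 at 2%. The 1% libraries were all below those of the control, but their highest was close to replicate 2 of the 2% diet and to replicate 1 of the 0.5% diet. At 1% BSG averaged 113 ± 7.40 FPKM, against 143 ± 17.8 in the control (SD, n = 3 each), a difference of -0.34 (SE 0.18, 95% interval -0.73 to 0.06) with an adjusted p of 0.313 by limma. The differences at 0.5% and 2% succinate were 0.01 and -0.05 (SE 0.18 each).

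BSG is short, at 1454 bases, and the difference at 1% moved with the length trend. It was -0.06 with that trend removed, the 1% libraries then standing at 119.6 to 138 FPKM and the control at 124 to 143, and -0.08 after quantile normalization. Without replicates 2 and 3 of the 1% diet it was -0.27. Summed endothelial markers (6 of 6 in the table) were 68.8, 77.0 and 91.9 FPKM at 1% succinate, against 61.6, 124 and 125 in the control, and the part of that in the values of BSG was not tested. BSG and SLC16A7 made 2 of the 5 tested carrier genes whose 1% libraries all lay below the control, where 10.7% of all tested genes did. The 1% libraries all lay above the control for 0 of 5, where 7.14% of all tested genes did. At 0.5% succinate 0 of 5 lay wholly below and 0 of 5 wholly above the control, where 10.4% and 1.76% of all genes did. At 2% the carrier genes again gave 0 of 5 in each direction, beside 6.75% of all genes below and 7.43% above.

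**Figure D3:**
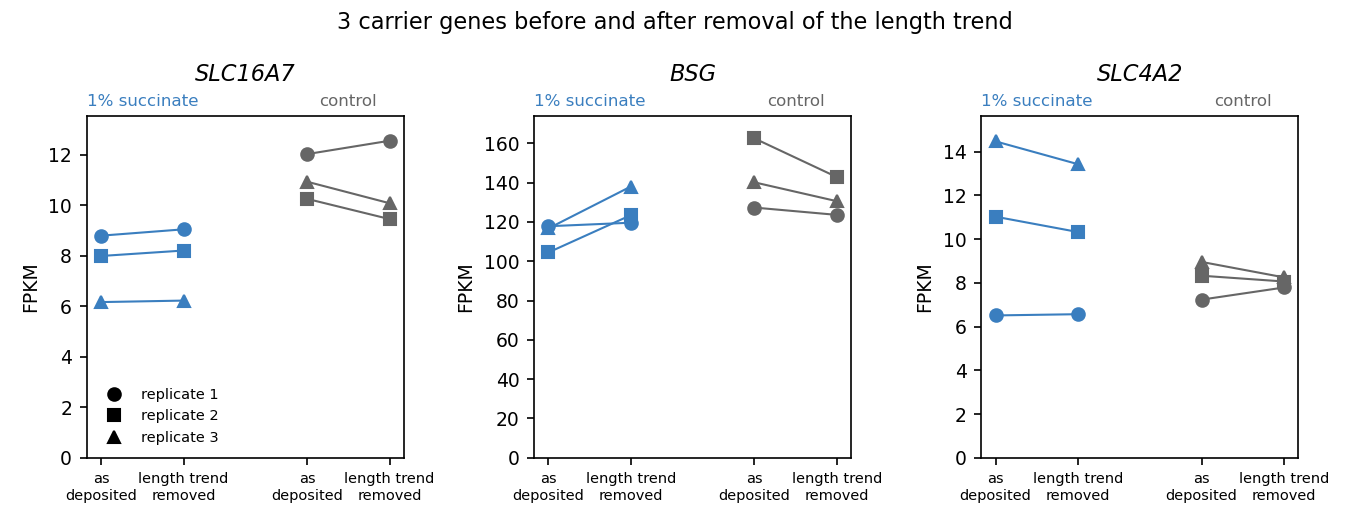
FPKM (vertical axes, from 0) of SLC16A7, BSG and SLC4A2 in the 3 libraries at 1% succinate and the 3 control libraries, as deposited and with each library's trend on gene length removed; lines join the values of a library. SLC16A7 stays apart (6.22 to 9.04 against 9.45 to 12.5), BSG comes to overlap (119.6 to 138 against 124 to 143), and SLC4A2 overlaps in both.

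Of the other partners, NPTN (neuroplastin, which is known to escort SLC16A1 and SLC16A7) averaged 81.5 ± 12.7 FPKM and EMB (embigin, the partner of SLC16A7 in rat) 0.208 ± 0.0745 (SD, n = 12 each). NPTN was 74.9 ± 20.9 FPKM at 1% succinate, against 84.8 ± 9.82 in the control, and did not pass. Of 15 further monocarboxylate carriers and partners listed, all were in the table and 6 were tested. By limma 0 passed at any dose, and their median difference at 1% succinate was -0.02, beside -0.04 for all genes. SLC16A14, an orphan carrier, had the smallest p of this list in the test of any difference. It averaged 0.485 ± 0.292 FPKM at 0.5%, 0.736 ± 0.513 at 1% and 1.21 ± 0.621 at 2%, against 1.62 ± 0.967 in the control. Of the sodium-coupled carriers of monocarboxylates, SLC5A8 had 1 read and SLC5A12 0 reads in the 12 libraries together.

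SLC13A3 was listed with plasma membrane carriers of dicarboxylates and of other anions, such as sulfate. The 7 of these that were found all fell below the filter of the test. They are not a full set of the carriers that may move succinate. SLC13A3, a high-affinity sodium-coupled dicarboxylate carrier known from kidney and brain, lies on chromosome 13 from 75235911 to 75322562, on the minus strand. It had 1, 2 and 4 reads in the control libraries, 7, 1 and 0 at 0.5% succinate, 2, 0 and 1 at 1%, and 1, 0 and 1 at 2%. Only 2 of 12 libraries had more than the 3 reads that a count of 0 allows (a one-sided limit, lower than the upper end of the two-sided Poisson interval), which are 0.0476 to 0.0575 FPKM for this gene. The sums were 8 reads at 0.5% (95% Poisson interval 3.45 to 15.8), 3 at 1% (0.619 to 8.77) and 2 at 2% (0.242 to 7.22), against 7 in the control (2.81 to 14.4), and a difference between diets was not detectable at this depth. Of the related plasma membrane carriers, SLC13A2 and SLC13A1 had 0 reads in all libraries, SLC13A5, the citrate carrier, averaged 0.0798 FPKM (124 reads) and SLC13A4, a sulfate carrier, 0.0482 (36 reads). SLC26A1, a sulfate and oxalate exchanger, averaged 0.135 FPKM (107 reads). SLC22A8, an organic anion transporter that exchanges dicarboxylates, averaged 0.391 FPKM (168 reads). It stood at 1.095 ± 1.42 FPKM at 1% succinate, against 0.165 ± 0.112 in the control (SD, n = 3 each), with 2.74 FPKM in the highest 1% library and 0.216 in the lowest.

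**Figure D4:**
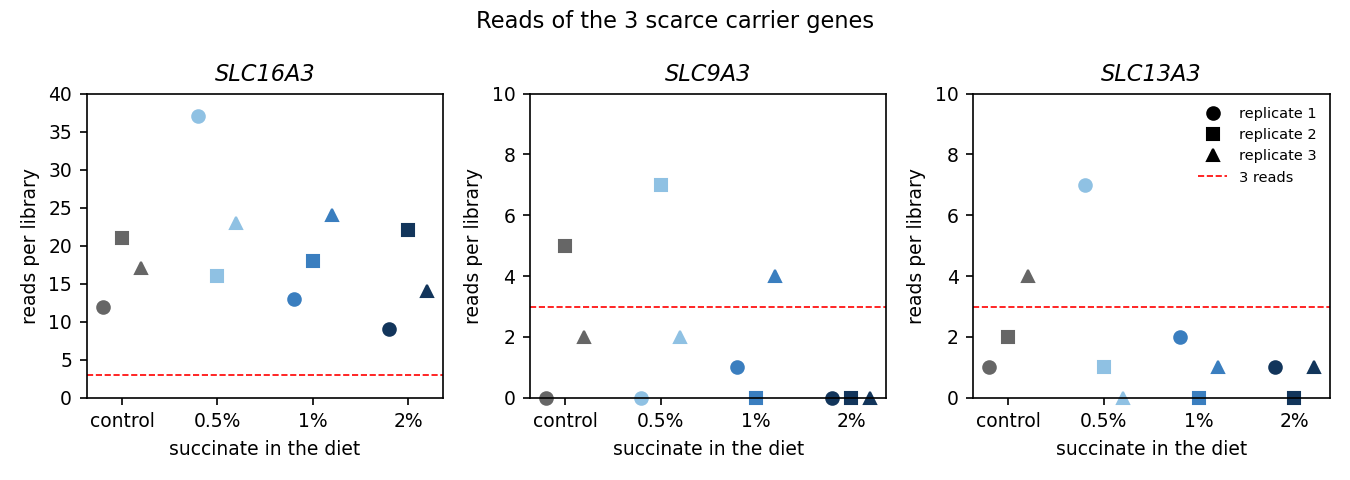
Reads per library (vertical axes) of SLC16A3, SLC9A3 and SLC13A3 by diet (horizontal axes); points are libraries, with a symbol for each replicate number, and the dashed line marks 3 reads. SLC16A3 has 9 to 37 reads and lies above the line in all 12 libraries, SLC9A3 in 3 and SLC13A3 in 2, and SLC9A3 has 0 reads in all 3 libraries at 2%.

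Within the mitochondrion, SLC25A10, the dicarboxylate carrier that exchanges succinate or malate for phosphate, lies on chromosome 11 from 50601828 to 50608884, on the minus strand. It stood at 1.83, 3.60 and 4.20 FPKM in the control, at 2.14, 2.57 and 2.24 at 0.5% succinate, at 1.95, 2.75 and 4.18 at 1%, and at 2.67, 2.49 and 2.18 at 2%. The diets overlapped. Control replicates 3 and 2 and replicate 3 of the 1% diet were the highest, and the control and 1% diets each held a library below 2 FPKM. The difference to the control was -0.30 (SE 0.25) at 0.5%, -0.08 (SE 0.25) at 1% and -0.25 (SE 0.25) at 2% succinate, with adjusted p of 0.890, 0.874 and 0.999 by limma. Without replicates 2 and 3 of the 1% diet the difference at 1% was -0.47, and with the length trend removed it was 0.06.

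Among the other mitochondrial carboxylate carriers listed, 5 of 8 had a higher mean than SLC25A10 and 3 a lower one (SLC25A21, SLC25A13 and SLC25A22, at 1.43, 1.396 and 1.16 FPKM). MPC1 and MPC2, the 2 subunits of the pyruvate carrier, averaged 46.1 ± 9.33 and 45.2 ± 9.43 FPKM, SLC25A11, the oxoglutarate and malate carrier, 40.8 ± 4.16, and SLC25A1, the citrate carrier, 16.9 ± 4.60 (SD, n = 12 each). Of the 16 genes in this list of dicarboxylate and mitochondrial carriers, 14 were in the table, 8 were tested and 0 passed at any dose by limma. Their median difference at 1% was -0.15, beside -0.04 for all genes. MPC2 averaged 33.1 ± 9.99 FPKM at 1% succinate, against 51.6 ± 6.74 in the control, with values of 43.7, 31.7 and 23.9 FPKM at 1% against 56.9, 53.9 and 44.1. Its log2 difference at 1% was -0.66 (SE 0.20), with an unadjusted p of 0.0056 by limma. In limma's separate test of any difference among the diets its adjusted p was 0.396. MPC2 is short, at 836 bases, and its lowest values were in the 2 libraries that favoured long genes. The part of the length trend in the values of MPC2 was not tested. MPC1 lay wholly below the control at 2% succinate, at 41.2, 40.1 and 33.9 FPKM against 61.5, 44.7 and 45.3 in the control. So did 6.75% of all tested genes. The difference of MPC1 was -0.38 (SE 0.19), with an unadjusted p of 0.0748 by limma.

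Of the proton exchangers, SLC9A3 encodes sodium-proton exchanger 3, which sits on the apical side of absorptive epithelia and has been described in the rumen lining. It lies on chromosome 16 from 71652463 to 71689063, on the plus strand. It had 0, 5 and 2 reads in the control libraries, 0, 7 and 2 at 0.5% succinate, 1, 0 and 4 at 1%, and 0, 0 and 0 at 2%. The 2% libraries were the lowest, but 1 library of each other diet also had 0 reads. The sum of 0 at 2% has a 95% Poisson interval up to 3.69 reads, against 7 reads (2.81 to 14.4) in the control, and the values of single libraries do not separate the diets. Without a filter on low values its difference at 2% had an unadjusted p of 0.221 by limma. The level of SLC9A3 stood beside those of the epithelial markers, which were at or near 0 in these libraries: their sum was 0.356 to 1.17 FPKM at 2% succinate, against 0.525 to 0.937 in the control.

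Of the related exchangers, the vesicle forms SLC9A9 and SLC9A8 averaged 3.63 and 3.65 FPKM. The highest of this list were SLC9A3R2, at 20.8 ± 5.07 FPKM, and EZR (ezrin), at 18.3 ± 4.95, which tie exchangers to the cytoskeleton. Of 18 names in the list, 15 were in the table, 11 were tested and 0 passed at any dose by limma. Their median difference at 1% was 0.09, beside -0.04 for all genes. SLC9A8, an exchanger of the Golgi, was 3.22, 6.83 and 8.41 FPKM at 1% succinate, against 2.33, 2.88 and 4.03 in the control. Its difference at 1% was 0.75 (SE 0.26), with an unadjusted p of 0.0135 by limma. In limma's separate test of any difference among the diets its adjusted p was 0.396. The 2 high values at 1% were those of replicates 2 and 3, and SLC9A8 is 6495 bases long. The part of the length trend in the values of SLC9A8 was not tested. SLC9A3R1, a scaffold that binds SLC9A3, was 4.27, 4.78 and 2.94 FPKM at 2% succinate, against 0.481, 1.77 and 3.25 in the control, overlapping by a single library (difference 0.93, SE 0.36).

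SLC4A2, anion exchanger 2, swaps chloride for bicarbonate in most tissues and lies on chromosome 4 from 115254045 to 115269231, on the plus strand. It stood at 7.23, 8.32 and 8.95 FPKM in the control, at 7.65, 6.59 and 7.20 at 0.5% succinate, at 6.51, 11.02 and 14.5 at 1%, and at 7.59, 8.65 and 6.67 at 2%. The 1% diet held both the lowest and the 2 highest of the 12 libraries. The other 9 libraries lay between 6.59 and 8.95 FPKM. At 1% the mean was 10.7 ± 3.99, against 8.17 ± 0.872 in the control, a difference of 0.29 (SE 0.22) with an adjusted p of 0.465 by limma.

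Single libraries decided this value. Without replicate 1 of the 1% diet the difference of SLC4A2 was 0.58, with an adjusted p of 0.0310 by limma, in a fit in which 2634 of 12095 genes passed. Without replicates 2 and 3 of that diet it was -0.28, with an adjusted p of 0.997, and without replicate 3 alone 0.06. Removal of the length trend left 0.25, with the 2 libraries at 10.3 and 13.4 FPKM and replicate 1 at 6.56. At 0.5% and 2% succinate the differences were -0.17 and -0.09 (SE 0.22 each), with adjusted p of 0.908 and 0.999.

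Other bicarbonate and chloride exchangers were lower than SLC4A2 in mean level. SLC26A11 averaged 6.76 ± 1.46 FPKM and SLC4A7, a sodium-bicarbonate carrier, 4.31 ± 1.02, while SLC4A1, the exchanger of red blood cells, had 2 reads in all. SLC4A3, the anion exchanger of heart and brain, was 1.86 ± 0.548 FPKM at 2% succinate, against 2.77 ± 0.210 in the control. The difference was -0.41 (SE 0.19), with an unadjusted p of 0.0532 by limma. Its 2% libraries all lay below the control, as did those of 6.75% of all tested genes. SLC26A7, a chloride carrier, was 2.16 ± 0.537 at 2%, against 1.27 ± 0.319 in the control (difference 0.47, SE 0.25). Of the 19 genes listed, 18 were in the table, 5 were tested and 0 passed at any dose by limma. Their median difference at 1% was 0.16, with 4 of 5 above 0, beside -0.04 for all genes. At 0.5% it was -0.20, with 0 of 5 above 0, beside -0.11. All 5 are longer than the median tested gene, at 3189 to 9378 bases against 3135. Replicates 2 and 3 of the 1% diet favoured long genes and replicate 2 of the 0.5% diet short ones. The part of that in these medians was not tested.

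**Figure D5:**
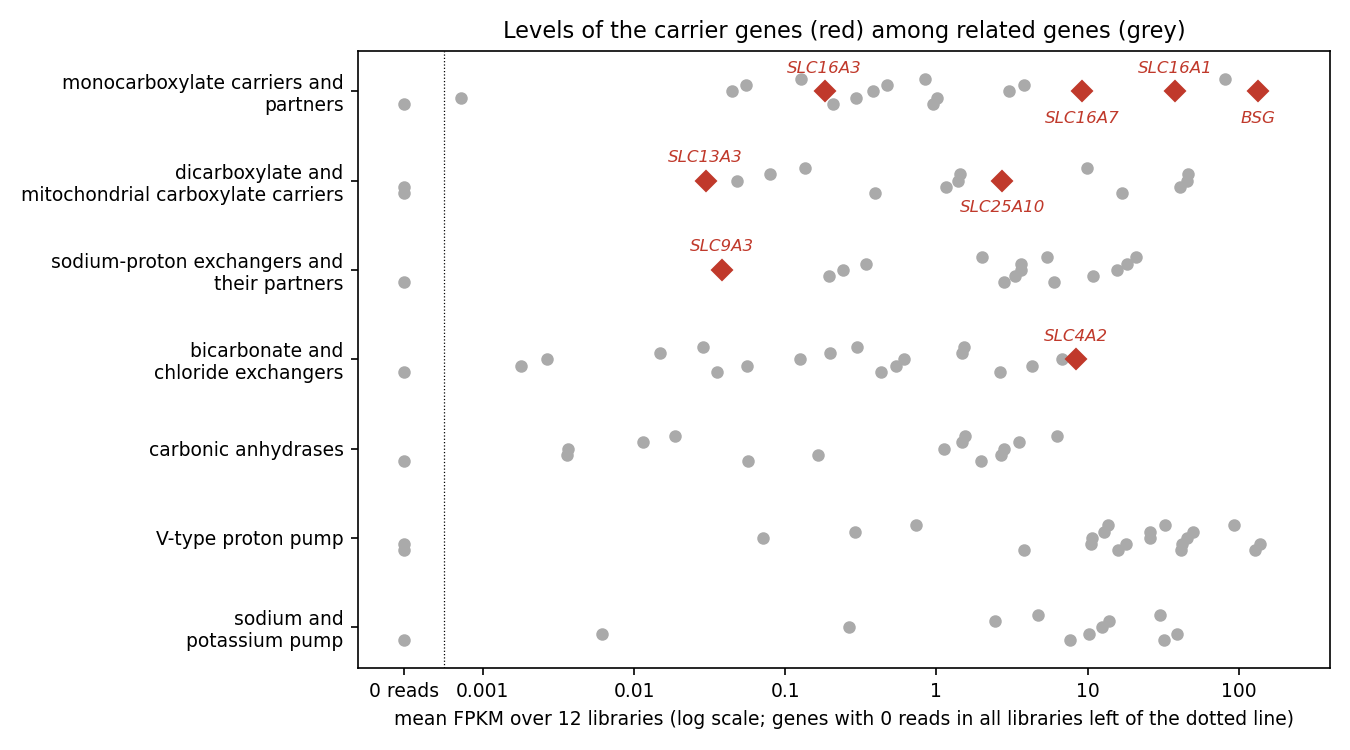
Mean FPKM over the 12 libraries (horizontal axis, log scale) of the 8 carrier genes (red diamonds) and of related genes in 7 lists (grey points, 1 per gene); genes with 0 reads in all libraries are drawn left of the dotted line. BSG, at 135 FPKM, and SLC4A2, at 8.40, are the highest of their lists, while SLC9A3, at 0.0380, and SLC13A3, at 0.0298, lie below most genes of theirs.

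Carbonic anhydrases supply the protons and bicarbonate that these exchangers move. Of 15, all were in the table, 8 were tested and 0 passed by limma. CA14 and CA3 were the highest, at 6.27 ± 3.03 and 3.52 ± 3.38 FPKM. CA5B, a mitochondrial form, was 0.687 ± 0.270 FPKM at 0.5% succinate, against 1.26 ± 0.399 in the control (difference -0.42, SE 0.22). CA9, a surface enzyme that is induced by low oxygen, had the smallest p of the list in the test of any difference, with an adjusted p of 0.396. It stood at 1.41, 0.479 and 2.13 FPKM in the control, at 3.77, 1.66 and 3.58 at 0.5% succinate, at 2.33, 4.38 and 3.40 at 1%, and at 5.43, 2.97 and 2.02 at 2%. The 1% libraries all lay above the control, as did those of 7.14% of all tested genes. The other doses of CA9 overlapped the control by 1 library each. Its difference to the control was 0.79, 0.94 and 0.93 (SE 0.34 each) at 0.5%, 1% and 2%, 3 comparisons that share the same control libraries, with an unadjusted p of 0.0379, 0.0171 and 0.0181.

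Of 22 genes of the V-type proton pump, which acidifies vesicles, 18 were tested and 0 passed at any dose by limma. Their median difference at 1% was -0.22, with 8 of 18 above 0, beside -0.04 for all genes. Gene length differed widely within this list. At 1% ATP6V1G1, of 1070 bases, was at -0.76, ATP6V0A1, of 4722, at 0.39 and ATP6V0C, of 468, at 0.13. The part of the length trend in this median was not tested. ATP6V0E1, at 139 ± 21.8 FPKM, and ATP6V1G1, at 129 ± 31.6, were the highest. ATP6V1B1 and ATP6V0A4, subunits known from acid-secreting kidney cells, had 0 reads in all libraries. ATP6AP2, an accessory subunit, was 22.6 ± 2.56 FPKM at 0.5% succinate, 21.1 ± 5.88 at 1% and 29.9 ± 2.92 at 2%, against 29.4 ± 2.53 in the control. Its differences were -0.37, -0.49 and 0.02 (SE 0.19 each), with an unadjusted p of 0.0708, 0.0211 and 0.915 by limma. Its 0.5% libraries all lay below the control, as did those of 10.4% of all tested genes. The other doses overlapped the control. Of 13 genes of the sodium and potassium pump, which maintains the sodium gradient that SLC9 and SLC13 proteins use, 9 were tested and 0 passed by limma. Its highest members were ATP1B1, a beta subunit, at 39.1 FPKM, and FXYD6, a regulator, at 32.1. FXYD1, its regulator in muscle, was 22.7 ± 4.10 FPKM at 1%, against 32.1 ± 3.67 in the control. The difference was -0.49 (SE 0.21), with an unadjusted p of 0.0381 by limma. The 1% libraries of FXYD1 all lay below the control, as did those of 10.7% of all tested genes.

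No linear trend across the doses was found for the carrier genes. By limma the slopes were 0.13 per percent succinate for SLC16A1 (SE 0.16), -0.03 for SLC16A7 (SE 0.11), -0.05 for BSG (SE 0.10), 0.000183 for SLC4A2 (SE 0.12) and -0.08 for SLC25A10 (SE 0.12), each with an adjusted p of 1.00. At an unadjusted p under 0.05 stood 0 of the 5, where 3.21% of all genes did. In the test of any difference among the diets, SLC16A7 had the smallest unadjusted p of the 5, at 0.0770 (adjusted p 0.418 by limma), and 0 of 5 were under 0.05, where 12.6% of all genes were. By limma 0 of 12095 genes passed in either test.

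The 5 tested genes did not share a pattern over the 12 libraries. As a description, over libraries that differ in depth and in length trend, Pearson's r of log2(FPKM + 1) for their 10 pairs ran from -0.52 (SLC16A1 with SLC25A10) to 0.71 (SLC4A2 with SLC25A10), with Spearman's rho at -0.62 and 0.70. SLC16A1 and its partner BSG were at r -0.51 and rho -0.31, and SLC16A1 and SLC16A7 at 0.43 and 0.38.

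The tested genes most like each carrier gene over the 12 libraries, by Pearson's r and given as a description, were the following. SLC4A2 was most like RANBP10, CPSF1 and ZNF335, at 0.99, 0.98 and 0.98, genes of 4477 to 5481 bases. SLC16A7 was most like BZW1, TBK1 and RPE, at 0.94, 0.94 and 0.93, genes of 5784 to 7319 bases. BSG was most like CLDN5, a junction protein of endothelium, at 0.94, CD9, a tetraspanin, at 0.92, and SNX32, at 0.92. These have 1261, 1123 and 3176 bases. SLC25A10 was most like PRPF6, SLC49A3 and TICAM1, at 0.94, 0.93 and 0.92, genes of 2900 to 4514 bases. SLC16A1 had the weakest matches of the 5, with HECTD2 at 0.87, TNPO1 at 0.84 and TGFB2 at 0.84, genes of 4372 to 8819 bases.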

How the data were processed

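Libraries were made from Trizol-extracted RNA with a NEBNext Ultra II kit, per the labels' protocols; cutadapt 1.15, HISAT2 2.1.0 and HTSeq 0.9.1 are named in the submitters' processing notes. The deposited values are FPKM computed by the authors; the genome build and strand setting are not given in the sources used here, and positions are those of the table. Chromosome names came from RefSeq (ARS-UI_Ramb_v3.0, names only), which held 20874 of 21257 gene IDs. Multiplied by gene length, 100% of the FPKM values came to whole numbers of reads to a tolerance of 0.01. All 66 pairs of libraries differed beyond counting error (chi-square per gene at least 20.9).

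Genes that reached 1 FPKM in 3 or more libraries were fitted with limma 3.58.1 (R 4.3.3, statmod 1.5.0; trend, robust, pseudocount 1, two-sided) over all 12 libraries; no covariate was used. The fit was tested on simulated data. The members, gene lists and tests were chosen with earlier results of these data known. Genes were named by rule: the 8 members; in each list the 2 with the highest mean and the 2 with the smallest p in the test of any difference; and the 3 genes most like each tested member. Other list genes were named for their known roles or after their values were seen. Some genes that the rule names are not reported here. With 3 libraries a diet, an exact test of a single value in a pair of diets cannot go below 0.1, so none is given. Intervals and floors cover counting error only. The medians of the gene lists were not recomputed with the length trend removed. Alternatives were another pseudocount, filter, scaling, length correction, limma-voom, a replicate block, fits of 2 diets and libraries left out.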

Additional observations from a re-analysis of the deposited data

How the results depend on the processing

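Over 22 alternative settings, 406 of 435 recomputed differences and slopes of the 5 tested carrier genes kept their sign and their side of the threshold, 28 changed sign and 1 came to pass (SLC4A2 at 1% succinate without replicate 1 of that diet, 0.58). With 1 library left out, the differences that changed sign ran from -0.23 to 0.49, -0.0545 to 0.54 and -0.0876 to 0.51 for SLC16A1 at 0.5%, 1% and 2%, from -0.11 to 0.15 and -0.13 to 0.0668 for BSG at 0.5% and 2%, and from -0.34 to 0.11 for SLC25A10 at 1%. The slopes ran from -0.0880 to 0.0252 for SLC16A7 and from -0.0264 to 0.0619 for SLC4A2. The slope of SLC4A2, near 0 as reported, was -0.000467 with a pseudocount of 0.1, -0.0166 with median centring, -0.0223 with quantile normalization, -0.0361 with the length trend removed and -0.0260 without replicates 2 and 3 of the 1% diet. Without these 2 libraries SLC4A2 at 1% was -0.28. With the length trend removed SLC25A10 at 1% was 0.0602 and BSG at 2% was 0.0267. The cause was not tested.

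The number of genes past the threshold, 0 as reported in each comparison, ran with 1 library left out from 0 to 2634 at 1% succinate, from 0 to 1 at 2% and from 0 to 1344 for any difference, the highest each time without replicate 1 of the 1% diet. It was 5 at 2% in a fit of those 2 diets only, and without replicates 2 and 3 of the 1% diet 1 at 2% and 1 for any difference. A fit that leaves the 1% diet a single library assumes that it varies like the others. With replicate number as a block 0 genes passed, and the smallest adjusted p of the carrier genes by limma was 0.231, for SLC16A7 at 1%. The labels do not say what a replicate number stands for. Deviations of same-numbered libraries from the diet means had correlations across genes of -0.33 to 0.26, over 0.1 in 5 of 18 pairs. Whether such libraries shared a batch was not tested. Depth limits SLC9A3 and SLC13A3, whose 12 libraries held 21 and 20 reads in all.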
